A study of Homo sapiens with 12 samples.

Results

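The genes described here build and drive the mitotic spindle, condense and separate chromosomes, and divide the cell. They are 44 genes listed by name: 12 kinesin motors, 13 spindle and spindle pole genes, 11 condensin and chromosome genes, and 8 cytokinesis genes. All 44 were found among the 34643 genes of the deposited table, and all 44 passed the filter on low counts, as did 15419 genes in all. The measurements came from LNCaP, an established, androgen-responsive human prostate cancer cell line. LNCaP cells were transduced with lentivirus that expresses an shRNA from the U6 promoter of pLKO.1-puro, either a scrambled control (shScramble) or one against TMEFF2 (shTMEFF2), and were selected with puromycin. About 17 days later both lines were kept for 24 h in medium with charcoal-stripped serum, which depletes androgens, and then for 24 h with 10 nM dihydrotestosterone, the strongest natural androgen (DHT+), or with ethanol vehicle (DHT-). This gave 4 groups, shScramble DHT-, shScramble DHT+, shTMEFF2 DHT- and shTMEFF2 DHT+, with 3 RNA-seq libraries each. The paper's methods give fewer days between transduction and the hormone-depleted medium than the 17 stated here. The 3 replicates of a group were separate treatments and extractions from 2 transductions in all, and which replicate came from which transduction is not given in the sources used here, nor is which of the study's shRNAs against TMEFF2 was sequenced.

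A cell that enters mitosis needs most of these proteins for a short time, and their mRNAs are made in a burst late in the cell cycle and are low in resting cells. Kinesins push, pull or shorten spindle microtubules, condensins fold chromatin loops into compact chromosomes, and the cytokinesis proteins organise the midzone, the furrow and the midbody. In prostate cancer cells androgen is known to act on proliferation as well as on secretion. In these bulk samples a larger share of dividing cells and more RNA per dividing cell cannot be told apart.

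The libraries held 19450866 to 22612046 estimated counts (median 21194622). TMEFF2, the shRNA target, was at 77.8, 73.8 and 103.2 CPM (counts scaled to library size) in shScramble DHT-, at 173.3, 117 and 169.4 in shScramble DHT+, at 68.7, 39.4 and 81.7 in shTMEFF2 DHT- and at 142.1, 90.1 and 114.5 in shTMEFF2 DHT+. The lines overlapped both without and with DHT, and the log2 differences, -0.43 ± 0.25 (SE, adjusted p = 0.50) and -0.41 ± 0.25 (adjusted p = 0.30), did not pass the test (edgeR quasi-likelihood, with every adjusted p here by Benjamini-Hochberg across the 15419 genes). On protein, the paper reports by Western blot that some of its shRNAs silenced TMEFF2 in LNCaP cells, and its supplement also shows TMEFF2 mRNA levels. KLK3, the prostate-specific antigen gene of luminal cells, was at 255 to 7737 CPM. The 8 luminal markers summed to 6567 to 6825 CPM in shScramble DHT- and to 13080 to 14490 in shScramble DHT+. In shTMEFF2 they summed to 4327 to 4906 without DHT and to 5157 to 6539 with DHT. The sums hide opposite directions. DHT in shScramble gave 5 of the 8 higher and 3 lower at an adjusted p of at most 0.05, beside 2217 and 1940 of the 15419 genes. DHT in shTMEFF2 gave 2 higher and 2 lower, beside 1209 and 804. Between the lines with DHT, 5 of the 8 were lower in shTMEFF2 than in shScramble and 1 was higher at this limit. Among the 15419 genes 1402 were lower and 1068 higher. The 4 basal markers summed to 1.17 to 1.92 CPM in shScramble DHT+ and to 0.196 to 0.673 in the other groups, with KRT5 at 0 in all libraries and KRT14 higher with DHT in shScramble (adjusted p = 0.0022). The 4 immune markers summed to 7.86 to 12.6 CPM per library, with CD3E at 0.050 at most, PTPRC lower and CD68 higher with DHT in shScramble (adjusted p = 0.035 and 0.0087). The 6 stromal markers summed to 19.6 to 41.5 CPM. The part of these cell type markers in the results was not tested.

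In shTMEFF2 cells almost the whole set passed the test as higher with DHT, whereas in shScramble cells nearly all log2 values were above 0 but few passed. A call needed both a change of 1.5-fold or more and an adjusted p no higher than 0.05, which are the study's own limits. DHT raised 37 of the 44 genes in shTMEFF2 cells and lowered 0, beside 3.28% of all genes tested that were called higher and 1.6% lower. On adjusted p alone 43 rose, beside 7.84% of all genes tested, and BORA (0.47 ± 0.25, adjusted p = 0.26) was the exception. The count of 43 was 30 to 43 when 1 library was left out, lowest without shTMEFF2 DHT+ replicate 3. In shScramble cells 2 of 44 were called higher (NCAPD3 and KIF22) and 0 lower, beside 5.45% and 6.45% of all genes tested, and on adjusted p alone 4 rose (also SMC4 and ANLN), beside 14.4%. The shScramble log2 value was above 0 for 42 of the 44, beside 48.4% of all genes tested. The median log2 change of the 44 genes was 0.86 in shTMEFF2 (range 0.35 to 1.32) and 0.22 in shScramble (range -0.10 to 1.43), where the median of all genes tested was -0.02 and -0.01. The shScramble median was 0.10 without shScramble DHT+ replicate 2 and 0.33 without shScramble DHT+ replicate 1. The DHT+ libraries lay above all DHT- libraries of the line for 42 genes in shTMEFF2, beside 15.6% of all genes tested, and for 11 in shScramble, beside 21.3%. The 2 DHT comparisons share no library.

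The same could be read from the summed level of the 44 genes in each library. It was 2493, 2956 and 2805 CPM in shScramble DHT-, 2989, 3815 and 3308 in shScramble DHT+, 2334, 2243 and 3068 in shTMEFF2 DHT-, and 3755, 4374 and 4927 in shTMEFF2 DHT+. The shTMEFF2 groups did not overlap, whereas the lowest shScramble DHT+ library was only just above the highest shScramble DHT- library. The highest group mean lay in shTMEFF2 DHT+ for 42 genes and in shScramble DHT+ for the other 2, NCAPD3 and KIF22. The lowest group mean lay in shTMEFF2 DHT- for 34 genes and in shScramble DHT- for 10. For 25 genes every shTMEFF2 DHT+ library lay above each of the other 9 libraries. These counts of group order were made for the 44 genes only, so no share of all genes tested stands beside them.

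The 44 genes also moved together between replicates of a group, so they are not 44 independent observations. Replicate 3 was the highest of the shTMEFF2 DHT- libraries for 44 of 44 genes, against 34.6% of all genes tested. It was also the highest of the shTMEFF2 DHT+ libraries for 38 (against 33.2%). Replicate 1 of shTMEFF2 DHT+ was the lowest for 43 (34.8%), but in shTMEFF2 DHT- replicate 2 was the lowest for 28 (32.6%). In shScramble replicate 2 was the highest for 36 without DHT (34.2%) and for 39 with DHT (32.7%). Replicate 1 of shScramble was the lowest for 40 without DHT (33.8%) and for 38 with DHT (32.8%). In each line the highest replicate number was thus the same without and with DHT. What set these libraries apart was not tested.

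**Figure D1:**
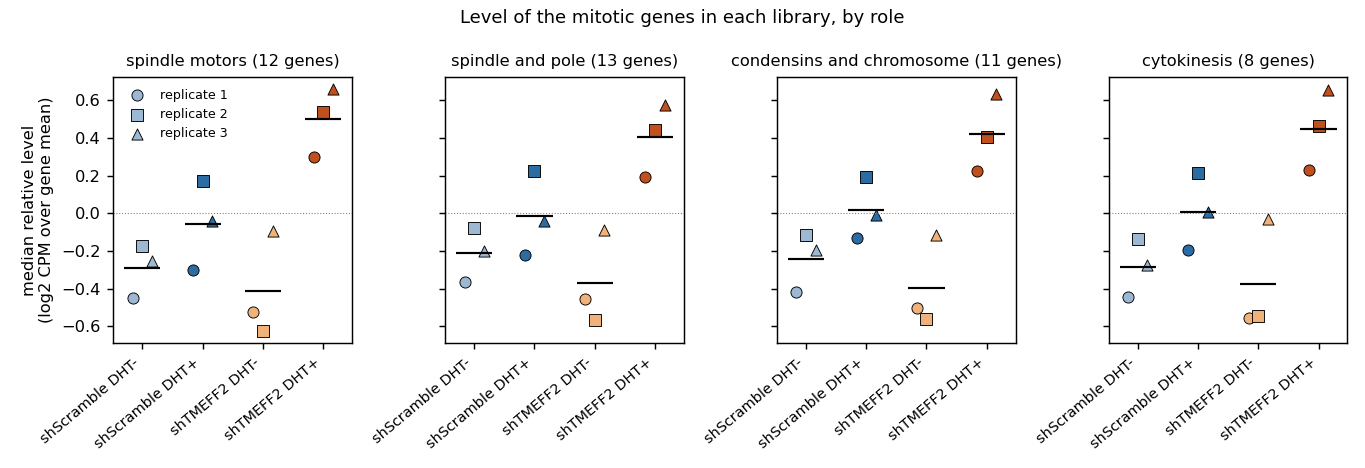
Median relative level (log2 CPM over each gene's mean across the 12 libraries, y axis) of the genes of each role in every library, by group (x axis), with points for libraries, shapes for replicates and lines for group means. In all 4 roles the 3 shTMEFF2 DHT+ libraries sit above 0 and the 3 shTMEFF2 DHT- libraries below it, and replicate 3 is the highest of both groups.

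The promoters of these genes share sequence that was not used to choose them. Many G2/M genes carry a cell cycle homology region, with the letters TTTGAA near the transcription start, which the MuvB complexes (DREAM, MYBL2 and FOXM1) are known to use, and upstream CCAAT boxes bound by NF-Y. RefSeq promoter windows, 250 bases before to 50 after the start on GRCh38.p14, were matched by symbol for 40 of the 44 genes (46 windows), and both strands were searched. AURKA, TPX2, NCAPH2 and RACGAP1 were not matched. TTTGAA was present in a window of 31 of the 40 genes (77.5%), against 18.2% of all 27305 genes with a window and 13.9% of the 11010 of them that were tested here. It began within 40 bases of the start in 25 genes (62.5%), against 3.74% of tested genes. The variant letters TTCGAA and TTTAAA were searched as well, and any of these forms was in 36 genes (90.0%, against 23.3% of tested genes). CCAAT occurred in 28 genes (70.0%, against 43.1% of tested genes), and at least 2 copies of it in 18 (45.0%, against 15.9%). The letters GCGGGAA, one form of the E2F site, occurred in 3 (7.5%, against 12.3%). The palindromic androgen response element, the arms AGAACA and TGTTCT with 3 bases between them, was in none of the 46 windows, and in 0.00285% of all windows. At so low a share its absence from the 46 windows is uninformative.

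**Figure D2:**
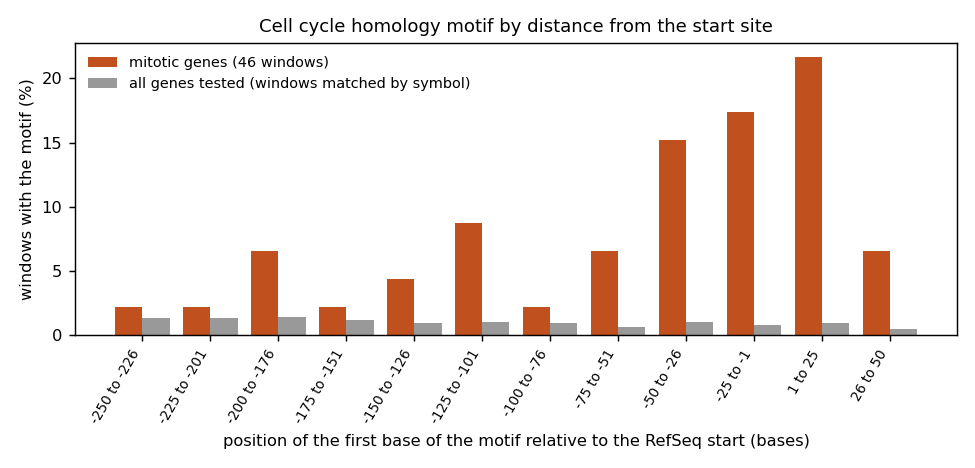
Share of promoter windows (y axis, percent) in which the 6-letter cell cycle homology motif begins in each 25-base bin relative to the RefSeq start (x axis, bases), for 46 windows of the mitotic genes and for the windows of all tested genes. The bin from base 1 to base 25 holds the motif in 10 of the 46 windows, and the bin just before the start in 8.

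The stretches upstream of the start (up to 120 bases, ending before the first annotated exon) of 3 motors, of separase, of 2 genes with a large response and of NCAPD3 are given to show the arrangement. Capitals mark the TTTGAA letters, the CCAAT box and the E2F letters, each read on either strand, so that some appear as their reverse complement, and the sequences are from RefSeq, GRCh38.p14, 5′ to 3′ on the strand of the gene.
KIF4A (chrX:70289984-70290103, plus strand): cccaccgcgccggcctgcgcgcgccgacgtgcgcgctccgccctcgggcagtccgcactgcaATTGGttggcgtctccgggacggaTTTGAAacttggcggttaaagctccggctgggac
KIF11 (chr10:92593010-92593129, plus strand): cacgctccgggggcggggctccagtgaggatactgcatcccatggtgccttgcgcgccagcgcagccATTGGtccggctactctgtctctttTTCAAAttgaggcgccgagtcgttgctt
KIF18A (chr11:28108157-28108276, minus strand): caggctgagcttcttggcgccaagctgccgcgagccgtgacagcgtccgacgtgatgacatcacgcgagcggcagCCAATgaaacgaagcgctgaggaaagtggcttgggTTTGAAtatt
ESPL1 (chr12:53268179-53268298, plus strand): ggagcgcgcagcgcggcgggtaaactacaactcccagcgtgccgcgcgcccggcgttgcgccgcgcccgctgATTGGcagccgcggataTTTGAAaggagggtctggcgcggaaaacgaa
NCAPG (chr4:17810859-17810978, plus strand): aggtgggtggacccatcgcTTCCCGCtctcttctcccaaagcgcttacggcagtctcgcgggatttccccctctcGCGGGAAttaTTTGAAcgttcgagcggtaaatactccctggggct
ASPM (chr1:197146695-197146789, minus strand): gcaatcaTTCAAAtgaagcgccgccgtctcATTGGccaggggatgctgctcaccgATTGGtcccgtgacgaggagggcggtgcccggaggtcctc
NCAPD3 (chr11:134225505-134225581, minus strand): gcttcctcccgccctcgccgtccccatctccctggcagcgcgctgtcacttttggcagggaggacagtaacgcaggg
KIF4A, KIF11, KIF18A and ESPL1 each held 1 CCAAT box upstream of 1 TTTGAA copy, NCAPG held TTTGAA beside 2 GCGGGAA copies, and ASPM held 2 CCAAT boxes with TTTGAA farther from the start. The NCAPD3 stretch held none of these letters, and neither did the rest of that window. A second RefSeq window of NCAPD3, at chr11:134223918-134224217, held 1 TTTGAA, 2 CCAAT and 1 GCGGGAA. Windows of TACC3, CKAP2 and ARHGAP11A held none of the letters searched. The 31 genes with TTTGAA had a median log2 change with DHT of 0.87 in shTMEFF2 and 0.26 in shScramble, and the 9 without it 0.74 and 0.17, with ranges that overlapped widely. Of the 9, KIF20A, KIF22, KIF2C, NCAPH and PTTG1 held the variant TTCGAA or TTTAAA, so the 9 are not all genes without such letters. A letter match is a description and not a bound site.

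The kinesin motors rose as a block in shTMEFF2 cells. All 12 were called higher with DHT, with log2 changes from 0.60 to 1.01 (median 0.88), and in none of the 12 did a DHT+ library overlap a DHT- library. The median in shScramble was 0.24, and 1 of 12 was called. KIF11, the motor that pushes spindle poles apart, was at 36.8, 32.5 and 49.6 CPM in shTMEFF2 DHT- and at 68.4, 79.9 and 90.8 in shTMEFF2 DHT+, a log2 change of 1.01 ± 0.18 (SE, adjusted p = 0.0037). In shScramble it was at 36.4, 46.2 and 45.2 without DHT and at 43.6, 66.2 and 53.3 with DHT, and these overlapped (0.35 ± 0.18, adjusted p = 0.16). KIF15, a motor that can back up KIF11, had the third largest value in shScramble. Its shScramble libraries went from 11.8, 13.9 and 18.9 CPM to 22.8, 24.4 and 22.4, without overlap but short of the test (0.64 ± 0.24, adjusted p = 0.068), and its shTMEFF2 libraries from 16.1, 9.3 and 21.2 to 27.4, 35.2 and 30.4 (1.00 ± 0.24, adjusted p = 0.017).

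Among motors of the central spindle, KIF23, the motor of the centralspindlin complex, rose in shTMEFF2 by 0.95 ± 0.17, KIF20A, which brings regulators to the midzone, by 0.90 ± 0.19, KIF20B, its relative that acts late in cytokinesis, by 0.90 ± 0.20, KIF4A, which binds chromosomes and limits midzone length, by 0.87 ± 0.15, and KIF14, a partner of citron kinase, by 0.87 ± 0.18. KIFC1, a minus-end motor that clusters poles, rose by 0.95 ± 0.14. Of the motors that act on microtubule ends, KIF18B rose by 0.81 ± 0.15, KIF2C, a depolymerase at centromeres, by 0.75 ± 0.17, and KIF18A, which dampens chromosome oscillation, by 0.60 ± 0.16. In shScramble these 9 motors had log2 values of 0.02 (KIF2C) to 0.38 (KIFC1), and none of them passed the test.

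KIF22, a chromosome-arm motor at chr16:29790727-29805385 (GRCh38, plus strand), was the motor called higher in both lines. It was at 63.4, 68.1 and 61.7 CPM in shScramble DHT- and at 113.7, 110.7 and 110.4 in shScramble DHT+. In shTMEFF2 it was at 60.9, 61.0 and 75.5 without DHT and at 95.3, 107.3 and 110.4 with DHT. The DHT+ libraries lay above the DHT- libraries in both lines, with log2 changes of 0.79 ± 0.09 (adjusted p = 3.33e-05) in shScramble and 0.67 ± 0.09 (adjusted p = 0.00089) in shTMEFF2. The difference of these responses was -0.13 ± 0.12 (adjusted p = 0.68).

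**Figure D3:**
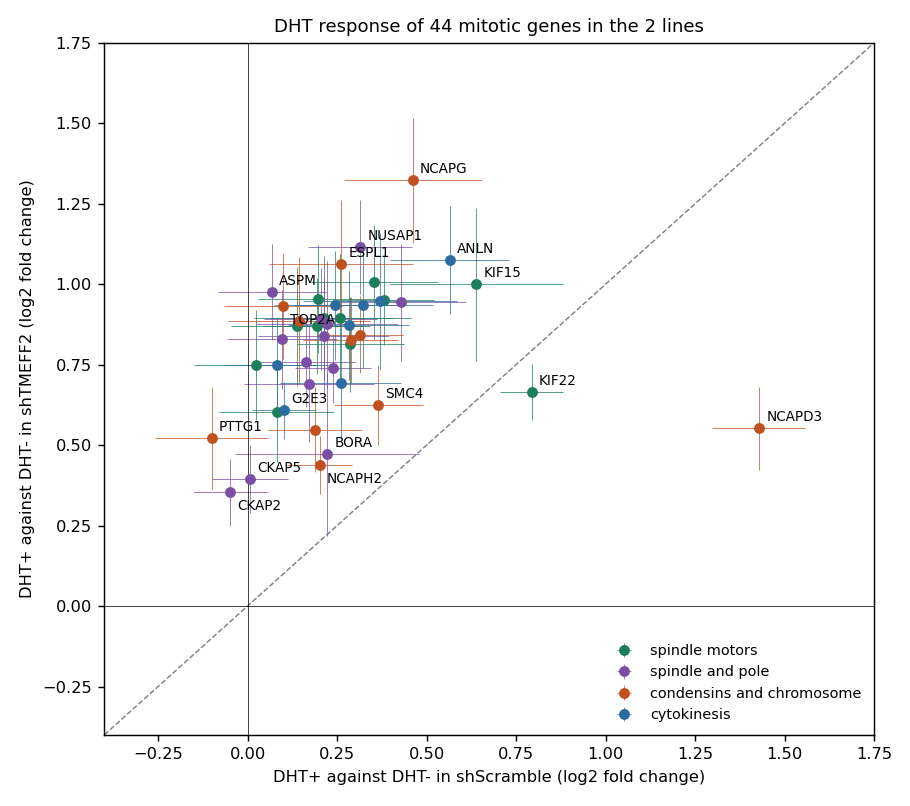
Log2 fold change with DHT in shScramble (x axis) against that in shTMEFF2 (y axis) for the 44 genes, coloured by role, with bars of 1 SE and a dashed line of equal change. Of the 44 points 42 lie above the line, and NCAPD3 and KIF22 lie below it.

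Among the spindle and pole genes 10 of 13 were called higher with DHT in shTMEFF2 and 12 passed on adjusted p alone, with a median log2 change of 0.83. In shScramble 0 of 13 passed on either rule by edgeR, 3 were higher at an unadjusted p under 0.05 (beside 19.7% of all genes tested), and the median was 0.20. The largest change was that of NUSAP1 (chr15:41320794-41381050, plus strand), which bundles and anchors microtubules near chromosomes. It was at 80.0, 81.9 and 104.4 CPM in shTMEFF2 DHT- and at 168.6, 179 and 228.9 in shTMEFF2 DHT+, a log2 change of 1.11 ± 0.15 (adjusted p = 0.00087). In shScramble it was at 90.9, 115.6 and 105.7 without and at 110.4, 147.4 and 130.3 with DHT, and these overlapped (0.31 ± 0.15, adjusted p = 0.13). NUSAP1 and NCAPG, with RRM2, BUB1B and CDC45 of the comparison lists, belong to a gene signature that the study chose on these libraries, so their direction is not independent evidence.

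ASPM, a spindle pole protein known from inherited microcephaly (chr1:197084121-197146694, minus strand), was at 24.9, 20.1 and 27.3 CPM in shTMEFF2 DHT- and at 40.7, 45.9 and 55.4 in shTMEFF2 DHT+. In shScramble it was at 25.8, 33.8 and 34.1 without DHT and at 29.4, 36.9 and 31.9 with DHT. The groups were apart in shTMEFF2 (0.98 ± 0.15, adjusted p = 0.0019) and overlapped in shScramble (0.07 ± 0.15, adjusted p = 0.78).

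Of the genes that build or focus the spindle, HMMR, a microtubule-binding hyaluronan receptor, rose by 0.94 ± 0.18 with DHT in shTMEFF2, TPX2, which activates Aurora A and nucleates microtubules, by 0.89 ± 0.16, and AURKA, the Aurora A kinase itself, by 0.88 ± 0.20. DLGAP5, a spindle fibre stabiliser, rose by 0.84 ± 0.18, CKAP2L, a spindle pole protein, by 0.83 ± 0.16, SPAG5 (astrin) by 0.76 ± 0.14, TACC3, which links kinetochore fibres, by 0.74 ± 0.11, and NEK2, a kinase that separates centrosomes, by 0.69 ± 0.18. The values of these 8 genes in shScramble ran from 0.10 for CKAP2L to 0.43 for HMMR, below the shTMEFF2 value in each case.

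The 3 spindle genes short of 1.5-fold in shTMEFF2 were CKAP5, CKAP2 and BORA. CKAP5, a microtubule polymerase that cells also use outside mitosis, went from 225.9, 206.3 and 263.6 CPM to 272, 296.4 and 346.1 in shTMEFF2 (0.39 ± 0.11, adjusted p = 0.028), and in shScramble from 195.9, 214 and 227.1 to 206.5, 232.2 and 201.5 (0.01 ± 0.11, adjusted p = 0.97). CKAP2, a microtubule stabiliser, had the smallest shTMEFF2 change of the 44 genes. Its libraries were at 78.7, 84.1 and 98.2 CPM without DHT and at 98.2, 111.4 and 123.6 with DHT in shTMEFF2 (0.35 ± 0.11, adjusted p = 0.045), and at 95.7, 107 and 103 without and 90.9, 110.3 and 94.4 with DHT in shScramble (-0.05 ± 0.11, adjusted p = 0.78). The highest DHT- and the lowest DHT+ library of CKAP2 in shTMEFF2 were almost level, and CKAP2 passed there in 4 of 12 leave-one-out fits. BORA, the activator of Aurora A and PLK1 at mitotic entry, was the member with the lowest level per kilobase of transcript (1.82 CPM per kb in shScramble DHT-, against 67.2 for PTTG1, the highest) and was measured with the largest error.

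Among the condensin and chromosome genes 7 of 11 were called higher with DHT in shTMEFF2, and all 11 passed on adjusted p alone (median log2 change 0.83). In shScramble 1 was called and 2 passed on adjusted p alone (median 0.26). Condensin I, which acts after the nuclear envelope opens, and condensin II, which is nuclear throughout, share the ATPases SMC2 and SMC4 and have 3 subunits each of their own. NCAPG, a condensin I subunit (chr4:17810979-17844865, plus strand), had the largest DHT change of the 44 genes in shTMEFF2. It was at 40.6, 38.9 and 58.5 CPM without DHT and at 94.9, 110.2 and 139.7 with DHT, so that all 3 DHT+ libraries lay above the DHT- libraries (1.32 ± 0.19, a 2.5-fold change, adjusted p = 0.0014). In shScramble it was at 43.9, 60.5 and 51.8 without and at 62.1, 88.5 and 64.3 with DHT, apart but short of the test (0.46 ± 0.19, adjusted p = 0.097). The other condensin I subunits, NCAPH and NCAPD2, changed by 0.89 ± 0.20 and 0.55 ± 0.13 in shTMEFF2 and by 0.14 ± 0.20 and 0.19 ± 0.13 in shScramble, where neither passed the test. SMC2 rose by 0.84 ± 0.12 and SMC4 by 0.62 ± 0.13 in shTMEFF2. In shScramble SMC4 rose by 0.37 ± 0.12 (adjusted p = 0.046), and it passed in 4 of 12 leave-one-out fits, while SMC2 was at 0.31 ± 0.12 (adjusted p = 0.072).

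Condensin II held the member whose response to DHT was called lower in shTMEFF2 than in shScramble. NCAPD3, a condensin II subunit (chr11:134150113-134225504, minus strand), was at 85.3, 92.5 and 97.0 CPM in shScramble DHT- and at 228.6, 264 and 246.3 in shScramble DHT+, a log2 change of 1.43 ± 0.13 (2.69-fold, adjusted p = 6.3e-06). In shTMEFF2 it was at 90.8, 97.0 and 121.1 without DHT and at 123.3, 153.9 and 175.7 with DHT, a log2 change of 0.55 ± 0.13 (1.47-fold, adjusted p = 0.014). The highest shTMEFF2 DHT+ library lay well below the lowest shScramble DHT+ library. NCAPG2 and NCAPH2, the other subunits of the complex, had log2 values of 0.29 ± 0.13 and 0.20 ± 0.09 in shScramble, where neither passed the test. In shTMEFF2 NCAPG2 rose by 0.83 ± 0.13, and NCAPH2 rose by 0.44 ± 0.09 (adjusted p = 0.0077), from 32.2, 32.4 and 37.0 CPM to 41.4, 48.7 and 47.6.

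NCAPD3 overlaps 2 genes on the opposite strand, JAM3 and VPS26B, and no source used here says that counting used strand. VPS26B, a retromer subunit, shares 249 of the 18698 exonic bases of NCAPD3 and was at 117.5 to 128.1 CPM in shScramble DHT-, 169.2 to 187 in shScramble DHT+, 125.6 to 133.3 in shTMEFF2 DHT- and 115.6 to 116.7 in shTMEFF2 DHT+. Its log2 value with DHT was 0.54 ± 0.06 in shScramble (adjusted p = 2.5e-05) and -0.17 ± 0.06 in shTMEFF2 (adjusted p = 0.081). JAM3, an adhesion molecule, shares 1889 exonic bases and did not exceed 7.42 CPM in any library. Both neighbours were looked up after the NCAPD3 values were seen, and the part of shared bases in the NCAPD3 values was not tested.

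**Figure D4:**
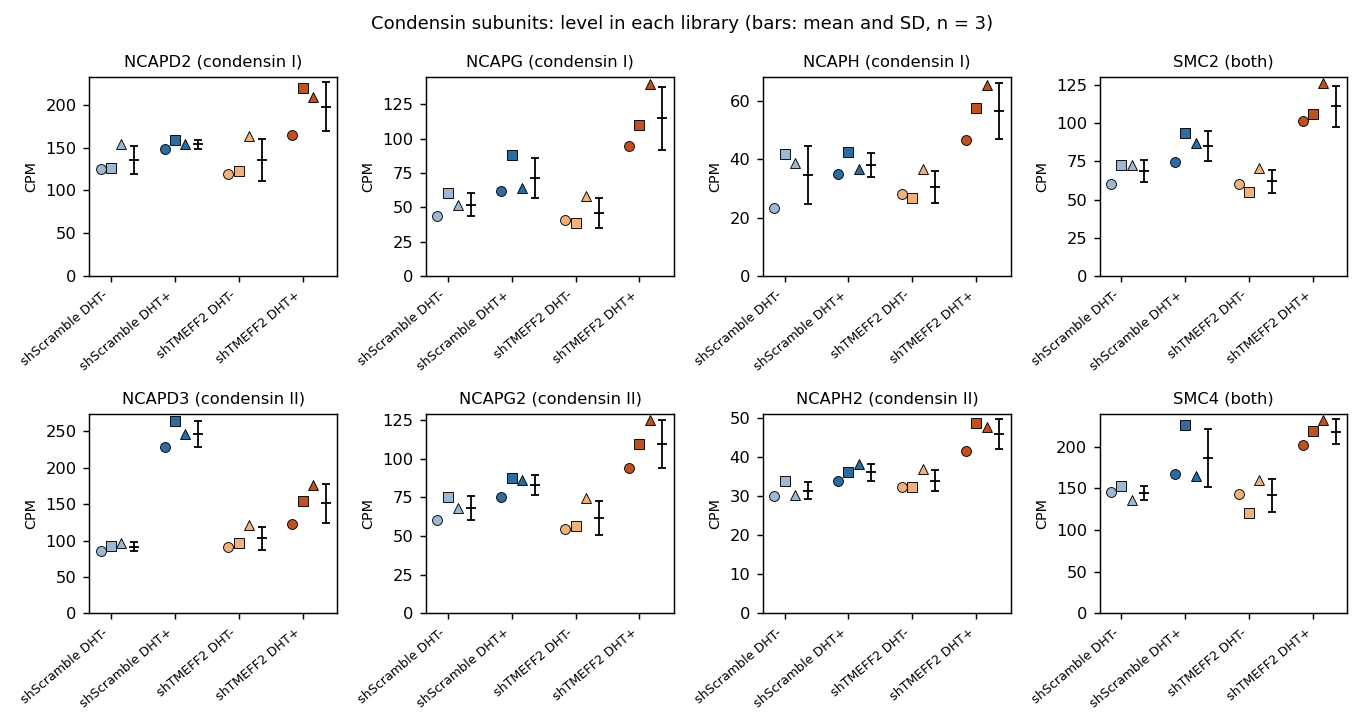
Level (CPM, y axis from 0) of the 8 condensin subunits in each library by group (x axis), with shapes for replicates 1 to 3 (circle, square, triangle) and bars for mean and SD, n = 3. In 7 panels shTMEFF2 DHT+ has the highest mean, and for NCAPD3 the 3 shScramble DHT+ libraries are the highest of the 12.

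The remaining chromosome genes act on DNA tangles and on the release of sister chromatids. TOP2A, the topoisomerase that untangles chromosomes, went from 111.5, 107.4 and 158.4 CPM to 211.5, 223.8 and 284.4 with DHT in shTMEFF2 (0.93 ± 0.17, adjusted p = 0.0038), and the groups were apart. In shScramble the TOP2A groups overlapped (0.10 ± 0.17, adjusted p = 0.71). ESPL1, the separase that cuts cohesin, rose by 1.06 ± 0.20 in shTMEFF2, against 0.26 ± 0.20 in shScramble (adjusted p = 0.37). PTTG1, the securin that holds separase back, showed the lowest shScramble value of the 44 genes. It was at 43.8, 54.0 and 46.4 CPM without and at 41.0, 49.9 and 43.5 with DHT in shScramble (-0.10 ± 0.16, adjusted p = 0.69), and at 37.7, 34.2 and 49.7 without and 46.1, 59.7 and 68.7 with DHT in shTMEFF2 (0.52 ± 0.16, adjusted p = 0.047). The groups of PTTG1 overlapped in both lines, and in shTMEFF2 it passed in 3 of 12 leave-one-out fits.

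All 8 cytokinesis genes were called higher with DHT in shTMEFF2, with log2 changes of 0.61 to 1.07 (median 0.90), and 0 of 8 were called in shScramble by edgeR (median 0.27, 1 with an unadjusted p under 0.05). ANLN, anillin, which ties actin, myosin and septins together in the furrow, was at 51.4, 55.4 and 74.2 CPM without and at 109.7, 126.7 and 145.2 with DHT in shTMEFF2 (1.07 ± 0.17, adjusted p = 0.0019). In shScramble it was at 63.0, 72.2 and 69.8 without and at 77.7, 121.6 and 103.8 with DHT (0.57 ± 0.17, adjusted p = 0.024). The groups were apart in both lines, and in shScramble ANLN passed on adjusted p alone in 8 of 12 leave-one-out fits.

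Of the others, CIT, citron kinase of the midbody, rose by 0.95 ± 0.21 in shTMEFF2, CEP55, which recruits the abscission machinery, by 0.94 ± 0.20, ARHGAP11A by 0.93 ± 0.17, RACGAP1, the partner of KIF23 in centralspindlin, by 0.87 ± 0.17, PRC1, which crosslinks midzone microtubules, by 0.75 ± 0.14, and ECT2, which starts the furrow, by 0.69 ± 0.17. Their shScramble values ran from 0.08 for PRC1 to 0.37 for CIT, and none passed the test. ARHGAP11A shares sequence with ARHGAP11B, a partial copy at 10.9 to 23.3 CPM, so reads may be split between them. ARHGAP11B rose by 0.74 ± 0.17 with DHT in shTMEFF2 (adjusted p = 0.013). G2E3, a ubiquitin ligase whose mRNA peaks in G2/M (chr14:30559158-30620064, plus strand), was at 49.8, 48.8 and 55.2 CPM without and at 71.8, 77.7 and 85.0 with DHT in shTMEFF2 (0.61 ± 0.09, adjusted p = 0.0013). In shScramble it was at 58.9, 66.7 and 64.6 without and at 61.6, 74.0 and 68.5 with DHT, and these overlapped (0.10 ± 0.09, adjusted p = 0.43).

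Whether the DHT response differed between the lines was tested as an interaction, and called on adjusted p alone. It was above 0 for 42 of the 44 genes, beside 50.9% of all genes tested, with a median log2 difference of 0.59 (all genes tested 0.01). The test called 3 higher, beside 1.65% of all genes tested: ASPM (0.91 ± 0.21, adjusted p = 0.028), NUSAP1 (0.80 ± 0.21, adjusted p = 0.043) and G2E3 (0.51 ± 0.13, adjusted p = 0.037). It called 1 lower, NCAPD3 (-0.88 ± 0.18, adjusted p = 0.015), beside 3.29% of all genes tested. At an unadjusted p under 0.05, 34 of the 44 differed, 33 of them higher (beside 8.06% of all genes tested), and outside the 4 called the largest differences were those of NCAPG (0.86 ± 0.27, adjusted p = 0.10) and TOP2A (0.83 ± 0.23, adjusted p = 0.063). DESeq2 called 16 higher and 1 lower, and edgeR with a term for the replicate number called 17 higher and 1 lower. The edgeR count of 3 depended on single libraries. It was 0 without any 1 of 7 libraries (shScramble DHT- replicates 2 and 3, shScramble DHT+ replicates 1 and 3, shTMEFF2 DHT- replicates 1 and 2, and shTMEFF2 DHT+ replicate 3), 1 without shTMEFF2 DHT+ replicate 2, 6 without shScramble DHT+ replicate 2 and 19 without shTMEFF2 DHT- replicate 3. NCAPD3 passed in all 12 of these fits, with log2 differences of -0.99 to -0.74, and missed the limit when only the first of the 2 columns of each library was used (adjusted p = 0.076).

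Differences between the lines were called with DHT and not without it. Without DHT 0 genes were called in either direction by edgeR, beside 0.298% higher and 0.272% lower among all genes tested, and 3 were lower at an unadjusted p under 0.05, beside 6.51%. DESeq2 called 0 as well, and on adjusted p alone, where edgeR gave 0, it gave 1 lower, G2E3 (-0.31, adjusted p = 0.045). The log2 values lay below 0 for 34 genes (50.9% of all genes tested) with a median of -0.14, from -0.38 for ASPM to 0.17 for NCAPD3. This median was -0.31 without shTMEFF2 DHT- replicate 3, where 17 genes had an unadjusted p under 0.05, and -0.21 without shScramble DHT- replicate 1. It was -0.05 without shScramble DHT- replicate 2, -0.06 without shTMEFF2 DHT- replicate 2 and -0.07 without shTMEFF2 DHT- replicate 1. With DHT 5 genes were called higher in shTMEFF2, beside 3.03% of all genes tested: KIF2C (0.76 ± 0.17), KIF23 (0.69 ± 0.17), NCAPG (0.68 ± 0.19), KIF18B (0.66 ± 0.15) and KIF18A (0.61 ± 0.16). NCAPD3 (-0.71 ± 0.13, adjusted p = 0.0024) was called lower, beside 3.74%. On adjusted p alone 17 were higher, beside 6.93%, and the median was 0.45. These comparisons share libraries with the DHT comparisons above. The count of 5 was 1 without shScramble DHT+ replicate 1, 3 without shScramble DHT+ replicate 3 or shTMEFF2 DHT+ replicate 3, 16 without shTMEFF2 DHT+ replicate 1 and 17 without shScramble DHT+ replicate 2. NCAPD3 passed on adjusted p in all 12 of these fits, and without shTMEFF2 DHT+ replicate 1 its log2 difference of -0.58 was just short of 1.5-fold.

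Other genes of the same machinery, in lists named by function, placed the 44 genes among their neighbours in the cell. A list of 17 genes held the chromosomal passenger complex and other mitotic markers, among them kinases, cyclins, FOXM1 and MKI67. Its median log2 DHT change was 0.86 in shTMEFF2 and 0.22 in shScramble. In shTMEFF2 17 of 17 were called higher, beside 3.28% of all genes tested. AURKB, the Aurora B kinase of that complex, rose by 1.07 ± 0.17 and MKI67, the proliferation marker Ki-67, by 1.06 ± 0.20. The 12 S phase markers had a median of 0.88 in shTMEFF2 with 11 called. In shScramble their median was 0.57 with 4 called higher, beside 5.45% of all genes tested. On adjusted p alone 10 were higher in shScramble, beside 14.4%, against the 4 of 44 mitotic genes. RRM2, the ribonucleotide reductase subunit, rose by 1.21 ± 0.18 in shTMEFF2 and 0.77 ± 0.17 in shScramble, and CDC6, which loads the replicative helicase, by 1.16 ± 0.12 and 0.97 ± 0.12. For the S phase markers the interaction had a median of 0.31 and 0 of 12 passed by edgeR, with 2 at an unadjusted p under 0.05.

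The 4 further lists, of kinesins, spindle, cohesin and ring genes outside the 44, had smaller median changes in shTMEFF2. Of 27 transport kinesins tested (of 29 listed) 0 were called with DHT in shTMEFF2 by edgeR, 4 were lower and 1 higher at an unadjusted p under 0.05 (beside 13% and 14.1% of all genes tested), 3 were lower on adjusted p alone (beside 5.21%), and the median was -0.07. Of 30 other spindle genes 1 was called higher, HAUS6 of the augmin complex (0.59 ± 0.08), beside 3.28% of all genes tested. On adjusted p alone 16 of the 30 were higher, beside 7.84%, and the median was 0.30. Of 16 cohesin and SMC5/6 genes 3 were called higher (beside 3.28%), with a median of 0.39. They were led by ESCO2, the acetyltransferase that locks cohesin in S phase (1.03 ± 0.18), and SGO1, which shields centromeric cohesin (1.02 ± 0.13). Of 26 contractile ring and ESCRT genes tested (of 30 listed) 1 was called higher (beside 3.28%), the formin DIAPH3 (0.99 ± 0.20). The median was -0.04. The differences between lists were not tested.

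**Figure D5:**
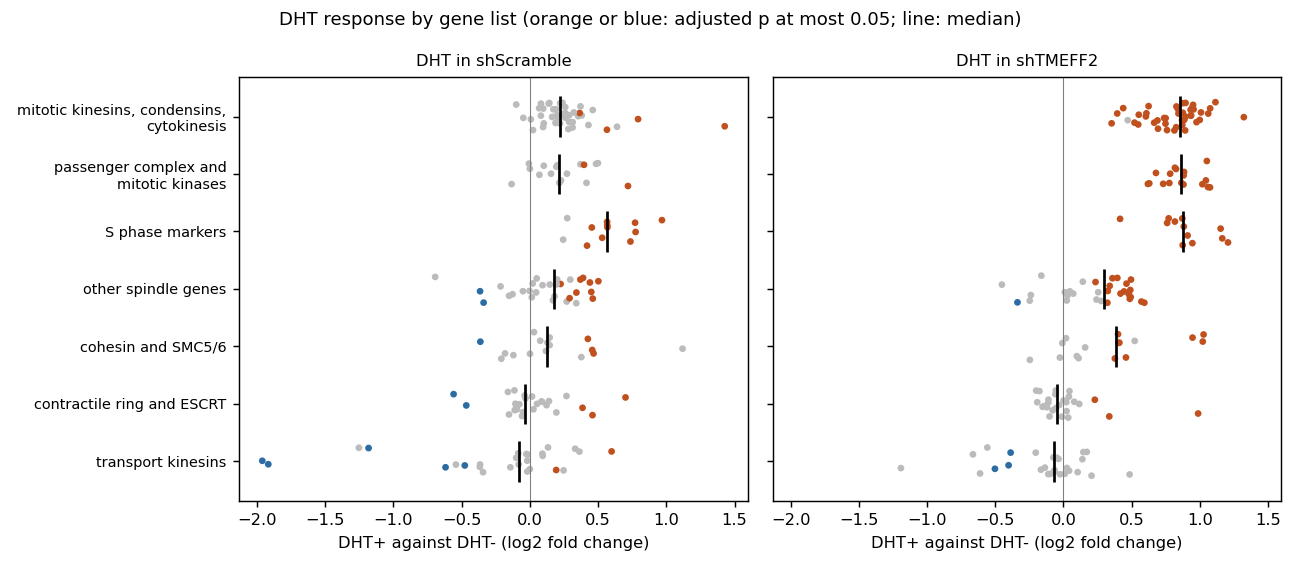
Log2 fold change with DHT (x axis) of each gene of 7 lists (y axis) in shScramble (left) and shTMEFF2 (right), with orange for higher and blue for lower at an adjusted p of at most 0.05, grey for the rest, black lines for medians and a vertical spread of points that only separates them. The medians of the mitotic genes are 0.22 and 0.86, and those of the transport kinesins -0.08 and -0.07.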

How the data were processed

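RNA-seq of 12 LNCaP libraries (3 in each of 4 groups) was used. Reads were 75-base pairs on a NextSeq 500. According to the processing notes and methods, the authors quantified transcripts with kallisto 0.42.3 on GRCh38 and deposited estimated counts per gene, scaled by transcript length. The 24 columns of the table (2 per library, none left unassigned) were summed per library and rounded. Without a strand setting in the sources used here, reads from exonic bases that overlapping genes share may have been counted for either gene.

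Genes were filtered with filterByExpr (15419 of 34643 kept), and libraries normalised by TMM. One edgeR 4.0.16 quasi-likelihood fit (R 4.3.3) over the 4 groups gave 5 contrasts with Benjamini-Hochberg adjustment over all genes. Log2 changes are given with SE. CPM are TMM-scaled. The common biological coefficient of variation was 0.131. The fit had no term for transduction. Its p-values take the 3 replicates of a group as independent, though all came from 2 transductions, and do not separate the spread between transductions. Alternatives included DESeq2 1.42.0, library-size scaling, other filters, only the first column of each library, a replicate block and leaving out each library.

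The 44 genes and the comparison lists were chosen with earlier results of these data known. All 44 could be named. Values per library were given for genes past the interaction test and for the 3 largest and 3 smallest DHT changes in each line, and for KIF11 and TOP2A as further examples. Of each comparison list, at most 2 called genes per direction were named. Positions are from GENCODE v44 (GRCh38), and level per kb uses canonical exon length.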

Additional observations from a re-analysis of the deposited data

Results flagged for a closer look

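The DHT response differed between the lines for 4 of the 44 genes by the interaction term of the edgeR quasi-likelihood fit (Benjamini-Hochberg adjusted p of at most 0.05). The log2 difference, shTMEFF2 minus shScramble, was 0.91 for ASPM, 0.80 for NUSAP1, 0.51 for G2E3 and -0.88 for NCAPD3. When 1 library was left out at a time, ASPM passed in 5, NUSAP1 in 4, G2E3 in 4 and NCAPD3 in 12 of the 12 fits.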

How the results depend on the processing

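The number of the 44 genes called higher with DHT in shTMEFF2 stayed within 1.5 times of 37 under every alternative run, and 27 to 40 were called when 1 library was left out. The number called higher with DHT in shScramble was 2 or 3, and without DHT 0 genes were called between the lines, under every alternative run. With DHT, the 5 genes called higher in shTMEFF2 became 8 among genes with a mean above 5 CPM, 10 under library-size scaling, and 1 to 17 when 1 library was left out. The 3 genes with a larger DHT response in shTMEFF2 became 16 by DESeq2, 10 with no filter on low counts, and 0 to 19 when 1 library was left out. On adjusted p alone, the 4 genes higher with DHT in shScramble became 8 by DESeq2, 6 with no filter, 7 from the groups of the comparison alone and 2 to 6 with 1 library left out, and the 17 higher in shTMEFF2 with DHT became 26 by DESeq2, 11 and 9 from the first or second column of each library and 3 to 25 with 1 library left out. The cause was not tested. No gene past the adjusted p limit, in the main fit or in an alternative, reversed direction between the 2. Some log2 values short of the limit in both did change sign, such as that of KIF18A with DHT in shScramble (-0.09 to 0.27). With 3 libraries per group, single-gene differences in response near 0.5 log2 were mostly short of the test.

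The main fit did not take the replicate numbers as a pairing, under a rule that every same-numbered correlation pass 0.1. Falling short of that limit does not show that the replicates were unpaired. Across 18 same-numbered pairs of libraries the correlation of deviations from the group means ran from -0.002 to 0.169 and passed 0.1 in 3. For pairs of unlike number it ran from -0.14 to 0.066. All 12 of 12 libraries correlated best with their own number, which is a hint from the data and not the design. With a replicate block the interaction called 17 genes higher, DHT in shTMEFF2 37, DHT in shScramble 3, and the lines with DHT 5. On adjusted p alone the block gave 12 for DHT in shScramble and 28 for the lines with DHT, against 4 and 17, and 1 gene lower in shTMEFF2 without DHT, G2E3.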
